A study of Rattus norvegicus with 18 samples.

Results

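The genes described here are 10 genes of organs that lie beside the adrenal gland, measured in 18 one-colour arrays of rat adrenal RNA. They are 7 genes of the liver's secreted plasma proteins (Apoa1, Afp, Alb, Ttr, Fga, Fgb and Fgg) and 3 genes of the kidney tubule (Umod, Slc22a6 and Slc34a1), taken by name from the 26612 gene names on the array. Each was read by 1 probe on 1 spot. Of the 10, 7 passed the filter on low signals (signal well above background, as the scanner software defines it, on all 3 arrays of at least 1 group), as did 20894 gene names in all. Fga and Fgb were well above background on only 3 arrays each and Slc34a1 on 1, so these genes have levels but no test. The question was whether such genes were high on the same single arrays.

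The adrenal glands came from untreated rats of 3 strains. WKY rats have normal blood pressure, SHR rats become hypertensive without treatment, and SHRSP rats are a line related to SHR that is prone to stroke. Each strain was sampled at 3 and at 6 weeks of age, with 3 arrays that the labels call biological replicates in each of the 6 groups. Per-animal details such as sex, or whether glands were pooled, are not given in the sources used here, so p-values measure the spread between these arrays.

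The arrays carried the adrenal's own transcripts strongly. Cyp11b1, which completes glucocorticoid synthesis in the cortex, gave processed signals of 125458 to 302597, and Th, which starts catecholamine synthesis in the medulla, 20492 to 58039, well above background on all 18 arrays. The share of spots well above background ranged from 77.8% to 84.8% over the arrays. Precision is limited by the number of arrays.

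The strain labels SHR and SHRSP did not carry the same strain pattern at both ages. Over 20708 genes, 14 separated the arrays labelled SHR from those labelled SHRSP by at least 4-fold between the nearest arrays at both ages, and 13 of the 14 did so in opposite directions. Vegfb, a growth factor gene, had a mean log2 level of -9.61 both in the 3-week arrays labelled SHR and in the 6-week arrays labelled SHRSP, against 0.29 to 0.68 in the other 4 groups. Serpinc1, the liver gene for antithrombin, was at -6.35 in the 3-week arrays labelled SHRSP and at -5.53 in the 6-week arrays labelled SHR, against 2.07 to 4.11 elsewhere. At a separation of 2-fold, 34 of 43 such genes were opposite. SHR and SHRSP below are therefore the names on the labels, and an age change in either rests on those names. Comparisons with WKY keep their control, but which of the 2 hypertensive strains they describe rests on the labels too.

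The liver secretes most of the proteins of blood plasma. Albumin carries fatty acids and hormones, transthyretin (Ttr) carries thyroid hormone, apolipoprotein A-I (Apoa1) is the main protein of HDL particles, and the alpha, beta and gamma chains encoded by Fga, Fgb and Fgg assemble into fibrinogen, the clotting protein. Afp encodes alpha-fetoprotein, the plasma protein of the fetal liver and yolk sac, whose gene lies beside Alb and is normally silenced after birth. In the kidney, uromodulin (Umod) is made by the thick ascending limb, Slc22a6 is the organic anion transporter of the proximal tubule and Slc34a1 its phosphate transporter. Hepatocytes transcribe the plasma protein genes through shared transcription factors, among them HNF1, which kidney tubule cells also contain.

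The probes of Alb and Afp lay 34.4 kb apart on chromosome 14 of the rn4 assembly, at 19126980 to 19127039 and 19092583 to 19092642, both on the minus strand. Those of Fgg, Fga and Fgb lay in 1 cluster on chromosome 2, at 174732484 to 174732543, 174751982 to 174752041 and 174768230 to 174768289. The other placed probes were those of Ttr (chromosome 18, 12413621 to 12413680), Umod (chromosome 1, 177729224 to 177729283), Slc22a6 (chromosome 1, 211302331 to 211302390) and Slc34a1 (chromosome 17, 15262929 to 15262988), while the Apoa1 probe was listed as unmapped. The files do not say which exon or UTR a probe reads.

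Promoters are shown for 3 of the liver genes, because the liver genes were high on the same arrays (below) and lie partly in shared clusters. The sequences are the 150 bases before the start of the gene on the GRCr8 build, from RefSeq, written 5′ to 3′ along the gene, and capitals mark GTTAAT or its reverse complement ATTAAC, the half-site of the HNF1 motif. They lie at chr14:17906980-17907129 (Alb, minus strand), chr14:17875646-17875795 (Afp, minus strand) and chr2:170700876-170701025 (Fgb, minus strand).
Alb: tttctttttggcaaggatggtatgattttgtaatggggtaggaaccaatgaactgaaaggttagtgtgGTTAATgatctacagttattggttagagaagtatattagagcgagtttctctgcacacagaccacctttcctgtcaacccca
Afp: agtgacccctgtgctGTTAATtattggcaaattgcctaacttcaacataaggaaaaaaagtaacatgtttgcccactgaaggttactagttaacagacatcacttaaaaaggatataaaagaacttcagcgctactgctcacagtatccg
Fgb: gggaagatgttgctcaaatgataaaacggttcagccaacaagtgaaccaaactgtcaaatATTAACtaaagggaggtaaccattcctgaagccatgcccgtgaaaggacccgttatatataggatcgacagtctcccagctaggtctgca
The half-site began 82 bases before the start in Alb, 135 in Afp and 90 in Fgb. Searched on both strands in the 250 bases before the start, it was present in 5 of the 8 members with a listed promoter. These were Alb, Afp, Fga, Fgb and Slc34a1, with 2 copies in Slc34a1, and the 3 shown are among them. It was absent in Ttr, Fgg and Umod, although Ttr and Fgg were high on the same arrays as the other liver genes. It was present in 2160 of all 33469 promoters, or 6.45%, a count of promoters and not of genes. A match is a description of the letters and not a site shown to be bound.

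Alb was low and even on most arrays and very high on 1. Its processed signal was 206, 201 and 521 in WKY, 280, 93711 and 3296 in SHR, and 453, 4280 and 621 in SHRSP at 3 weeks, in the order of replicates 1 to 3. At 6 weeks it was 486, 340 and 207 in WKY, 189, 258 and 466 in SHR, and 311, 367 and 569 in SHRSP. Replicate 2 of SHR at 3 weeks stood above every other array, SHR replicate 3 and SHRSP replicate 2 of the same age came next, and the other 15 arrays lay between 189 and 621. All groups overlapped for Alb.

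Ttr showed the same 3 arrays on a lower base. Its signals at 3 weeks were 35.3, 26.6 and 134 in WKY, 25.2, 69432 and 1796 in SHR, and 59.5, 1826 and 33.6 in SHRSP. At 6 weeks no array of any strain passed 37.4, and the lowest was at 12.9. WKY replicate 3 at 3 weeks, at 134, was the fourth array in this order.

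The fibrinogen chains are made together in equal parts, and their genes were high on the same arrays. Fgb was at 2.74, 9581 and 250 in SHR at 3 weeks and at 8.38, 296 and 3.23 in SHRSP, while WKY had 4.37, 2.2 and 12.9. Fga was at 2.01, 3783 and 68.4 in SHR, at 7.25, 89.2 and 2.36 in SHRSP and at 3.42, 2.21 and 6.61 in WKY. The 3 arrays named for Alb were the only ones of the 18 on which Fga or Fgb was well above background. Fgg, whose probe was well above background on all 18 arrays, read 68, 3589 and 136 in SHR at 3 weeks, 58.3, 143 and 54.5 in SHRSP and 72.1, 53.2 and 59.7 in WKY. At 6 weeks it ran from 50.8 to 103.

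Apoa1 was at 16.7, 2303 and 70.7 in SHR at 3 weeks, at 18.9, 93.2 and 33.3 in SHRSP, and at 5.75, 4.75 and 3.63 in WKY, where no array was well above background. At 6 weeks it was at 9.98, 3.23 and 9.6 in WKY, 26.4, 18.7 and 21.3 in SHR, and 5.23, 12.3 and 7.5 in SHRSP. The 2 hypertensive strains were thus above WKY on every 3-week array. Afp followed the single arrays in part, with 10.9, 281 and 16.6 in SHR and 13.3, 27.2 and 17.7 in SHRSP, but in WKY it was at 427, 368 and 435, above all arrays of both other strains.

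**Figure D1:**
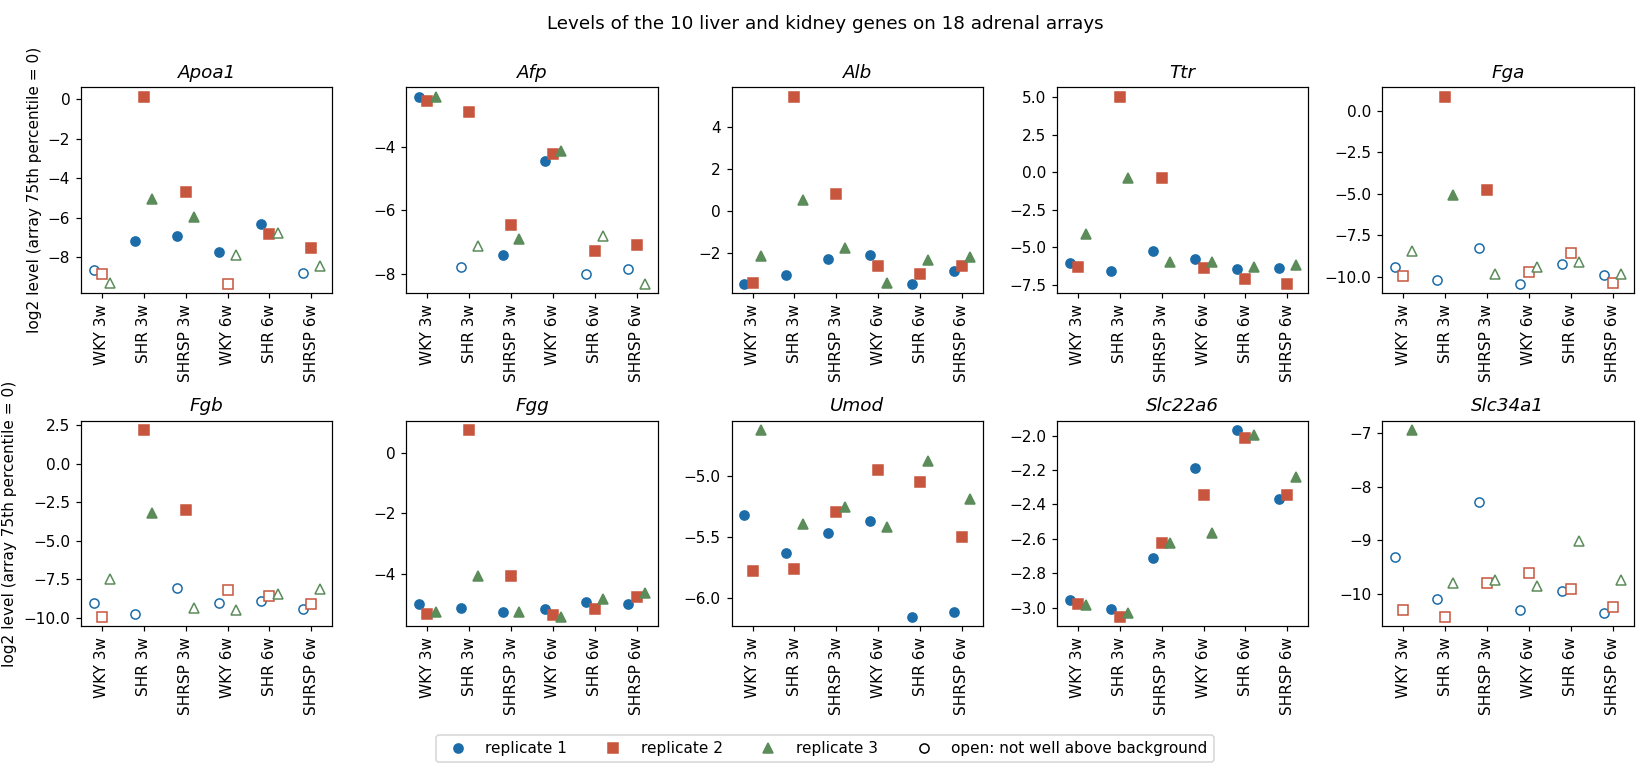
Level of each of the 10 genes on each of the 18 arrays, as log2 of the processed signal relative to the array's 75th percentile (y axis, a scale of its own for each gene) by strain and age (x axis, 3w and 6w for weeks). Each point is 1 array, its shape and colour give the replicate number, and open points were not well above background. The 7 liver genes peak on replicate 2 of SHR at 3 weeks, except Afp, which is highest in WKY, and the 3 kidney genes do not peak there.

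Counting arrays on which a gene was at least 2-fold above both other arrays of its group set 1 array apart. On SHR replicate 2 at 3 weeks 7 of the 7 liver genes and 0 of the 3 kidney genes passed that mark, where 0.844% of 20861 genes kept did. The filter kept 5 of these liver genes and 2 of these kidney genes. Member counts in this paragraph and the next also include Fga, Fgb and Slc34a1, which were not kept, while the shares cover only genes kept. The 2 are therefore not counted over the same kind of genes. The gap to the next array was 42.6-fold for Ttr, 42.3-fold for Fgb, 60.9-fold for Fga, 35.9-fold for Apoa1, 31.3-fold for Alb, 29.0-fold for Fgg and at least 18.7-fold for Afp, which was not well above background on the other 2 arrays. These are differences between single arrays, with no test. In RNA of whole glands, more cells of a type and more RNA per cell cannot be told apart.

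On SHRSP replicate 2 at 3 weeks 6 of the 7 liver genes passed the mark and 0 of the 3 kidney genes (0.71% of 20856 genes). Ttr was 28.9-fold above the next array, Alb 6.05-fold, Apoa1 2.45-fold and Fgg 2.31-fold. Fgb was at least 23.3-fold and Fga at least 7.03-fold higher, since neither was well above background on the other 2 arrays, and Afp, at 1.35-fold, was the exception. On WKY replicate 3 at 3 weeks 3 liver genes (Alb, Ttr and Fgb) and the kidney gene Slc34a1 passed it (0.662% of 20858 genes), but none did after a different background correction (normexp). On SHRSP replicate 1 Slc34a1 passed it alone (0.24% of genes), at 7.27 and not well above background. On SHR replicate 3 none passed (1.57% of genes), because replicate 2 was higher for every liver gene. Against SHR replicate 1 this array was 73.2-fold higher for Ttr, 12-fold for Alb, 4.35-fold for Apoa1 and 2.06-fold for Fgg. Fgb and Fga were not well above background on replicate 1, and against its detection floor (its lowest signal well above background) replicate 3 was at least 26.8-fold and at least 7.36-fold higher. Afp was not well above background on either array. At 6 weeks no array had a member that passed, although 2.94% of genes did on WKY replicate 2 and 2.36% on SHRSP replicate 3. Below both other arrays by at least 2-fold lay 6 of the 7 liver genes on SHR replicate 1 at 3 weeks, all but Afp (0.407% of genes). The others were Fga and Fgb on SHRSP replicate 3 at 3 weeks (0.388%) and, at 6 weeks, Apoa1 on WKY replicate 2 (0.139%), Umod on SHR replicate 1 (2.82%) and Ttr on SHRSP replicate 2 (0.192%). Of these, Fga, Fgb and Apoa1 were not well above background there, so their low values have no order among dim signals. The 3 arrays with the most liver signal lay on 3 different slides.

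In the wider lists of the same organs only genes well above background on the array were counted, a mark by which WKY replicate 3 at 3 weeks had 2 liver members and 1 kidney member and SHRSP replicate 1 had 0. Of 39 other liver genes on the array, 31 passed the 2-fold mark on SHR replicate 2 at 3 weeks (0.844% of genes kept). On SHRSP replicate 2 of that age 15 passed (0.71%), and no other array had more than 3. The shares cover genes kept, while the counts cover the list genes on the array. Gc, the vitamin D carrier, read 14.5, 7325 and 150 in SHR at 3 weeks, prothrombin (F2) 11.4, 5629 and 127, Apoh 10.3, 3797 and 64.1 and Apoc3 47.7, 8830 and 324. Itih3, an inter-alpha-trypsin inhibitor chain, read 26.8, 3910 and 168, and Fetub 10.4, 1432 and 44.1. These 6 had the widest spread within groups among the 27 tested genes of that list, and all 6 were farthest from their group mean on SHR replicate 2.

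Of 37 other kidney genes, 5 passed the mark on SHR replicate 2 (0.844% of genes kept) and 5 on WKY replicate 3 (0.662%). No other array had more than 2. Those on SHR replicate 2 were the transporters Slc17a3 (10.7, 189 and 17.2 in the 3 arrays of SHR at 3 weeks) and Slc22a8 (21.9, 121 and 22.4), with Miox (19.0, 143 and 22.5), Nat8 (27.3, 121 and 28.0) and Acsm2. Miox is an enzyme of inositol breakdown. The uromodulin, Slc22a6 and Slc34a1 signals of that array lay below or level with the other SHR arrays. On WKY replicate 3 they were Slc7a13 (25.8, 11.9 and 90.04 in WKY at 3 weeks), Miox, Cdh16, Nat8 and Acsm2. Slc6a18 stood out elsewhere, at 5510 on SHR replicate 3 at 6 weeks against 988 and 944.

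**Figure D2:**
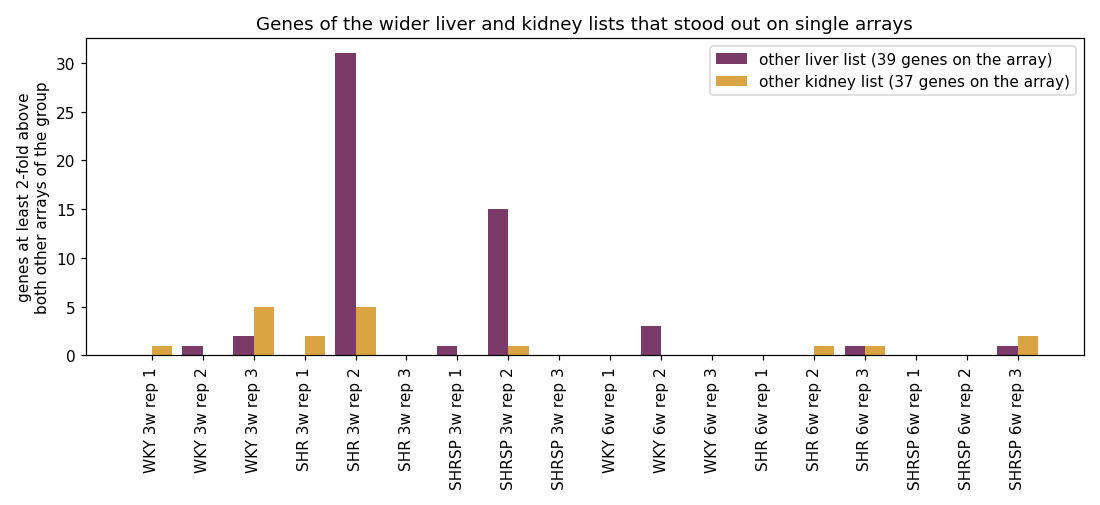
Number of genes at least 2-fold above both other arrays of their group (y axis) on each of the 18 arrays (x axis), for the wider liver list (39 genes) and the wider kidney list (37 genes), counting genes well above background on the array. The liver bars reach 31 on SHR replicate 2 and 15 on SHRSP replicate 2 at 3 weeks, and the kidney bars do not pass 5.

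Summed over the wider liver list, the level (in units of the array's 75th percentile) was 122 on SHR replicate 2 and 36.8 on SHR replicate 3, against 21.9 on SHR replicate 1. In the other 5 groups it ran from 15.1 to 44.9. Serpinc1, which lay on opposite sides of the SHR and SHRSP labels at 3 and 6 weeks as described above, is part of this sum. So is Rbp4, which stood 14.3 units above SHR replicate 1 on SHR replicate 3 and 14.5 on SHR replicate 2. Most of the step from 21.9 to 36.8 on SHR replicate 3 was thus this 1 gene. The same sum over 15 fat genes also differed between those 3 arrays, with 77 on replicate 1, 117 on replicate 2 and 157 on replicate 3, and ran from 38.2 to 125 in the other groups. Exocrine pancreas genes stayed between 0.42 and 0.75 on all 18 arrays. The part of any such tissue in the liver values was not tested.

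On SHR replicate 3 and SHRSP replicate 2 the liver genes stood above their base by similar shares of their rise on SHR replicate 2. The excess of a gene was taken as its linear level on the array minus that of SHR replicate 1 (for SHRSP replicate 2, minus the mean of the other 2 SHRSP arrays at 3 weeks). On SHR replicate 3 the excess was 1.60% (Fga) to 2.94% (Alb) of that on SHR replicate 2, with a median of 2.16% over the 7 genes, or 2.24% over the 6 that were well above background on all 3 arrays. On SHRSP replicate 2 it was 1.95% (Fga) to 3.46% (Alb), with a median of 2.47%, or 2.36% over those 6. Over those 6 the excess on SHR replicate 2 itself ran from 1.08 (Apoa1) to 44.2 (Alb), in units of the array's 75th percentile. Afp, with an excess of 0.13 there, had a share of 3.25% on SHRSP replicate 2. On SHR replicate 3 its share of 1.99% is a difference of signals not above background and measures no excess. In the 31 other liver genes that passed on SHR replicate 2, the medians were 1.68% and 1.85%. Single genes ran from -1.58% (Apoc1) to 11.3% (Vtn) on SHR replicate 3. The range on SHRSP replicate 2 was -3.02% (Kng1) to 47.3% (Cyp2c11). These genes at the ends were well above background on all 3 arrays, though the excess of Cyp2c11 on SHR replicate 2 was only 0.015. Some others of the 31 were not well above background on SHR replicate 3 or SHRSP replicate 2, and their shares are differences of dim signals.

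**Figure D3:**
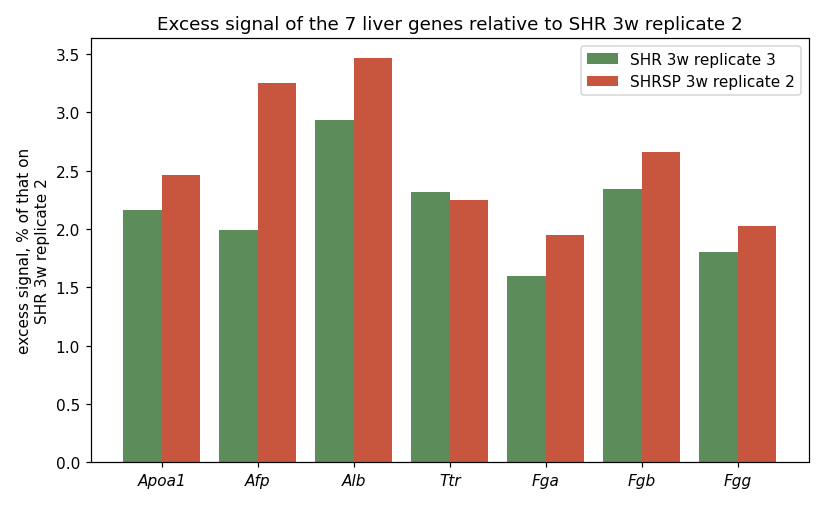
Excess signal of each liver gene on SHR replicate 3 and SHRSP replicate 2 at 3 weeks (y axis, as a percentage of the same gene's excess on SHR replicate 2), with the genes on the x axis. Each bar is 1 array without a replicate, and all 14 bars lie between 1.60% and 3.46%. The Afp bar of SHR replicate 3 rests on signals not well above background.

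Co-variation was measured over the 18 deviations of each array from the mean of its group, so that the means of strain and age are removed. All 21 pairs of liver genes had a positive correlation, with Pearson's r from 0.77 to 0.98 and a median of 0.90. The exact permutation test, which reorders the arrays within each group, gave a p under 0.05 for 16 of the 21, and none passed after Benjamini-Hochberg adjustment over the 45 pairs of members (lowest adjusted p = 0.0506, two-sided exact permutation test). For Alb and Ttr r was 0.96 (p = 0.00767, adjusted p = 0.0617, exact permutation test) and Spearman's rho 0.81 (p = 0.00369, adjusted p = 0.0588, exact permutation test). For Alb and Fgb r was 0.96 (p = 0.00375, adjusted p = 0.0506, exact permutation test) and rho 0.87 (p = 0.000622, adjusted p = 0.028, exact permutation test).

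These relations rested on few arrays. Without SHR replicates 1 and 2 at 3 weeks, the arrays farthest from the median of every liver gene, r was 0.85 for Alb and Ttr and the median over liver pairs 0.67. Leaving out the 3 arrays with the most liver signal, a set chosen after its values were seen, gave a median r of 0.10, and 12 of 21 pairs were positive. In the 9 arrays of 3 weeks alone the median was 0.94, and in the 9 of 6 weeks -0.02, with 10 of 21 positive. The difference between the ages was not tested.

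The 21 pairs of a liver and a kidney gene had r from -0.30 to 0.14, with a median of -0.01, and 0 passed after adjustment (1 of 21 with an unadjusted exact permutation p under 0.05, Apoa1 with Slc34a1 at r = -0.30 and rho = -0.61, adjusted p = 0.0949 and 0.0588). For Alb and Umod r was 0.13 and rho 0.41 (adjusted p = 0.575 and 0.219, exact permutation test). The median of these pairs was 0.30 without the 3 arrays of most liver signal, and 0 of 21 passed after adjustment (7 with an unadjusted exact permutation p under 0.05).

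Among the kidney genes, Umod and Slc34a1 had r of 0.62 and rho of 0.53 (p = 0.0253 and 0.0528, adjusted p = 0.0949 and 0.158, exact permutation test). Without SHR replicate 1 at 6 weeks and WKY replicate 3 at 3 weeks r was 0.40 (adjusted p = 0.35, exact permutation test), so the relation rested on those arrays. Slc22a6 had r of 0.12 with Umod and -0.15 with Slc34a1. None of the 3 kidney pairs passed the threshold.

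**Figure D4:**
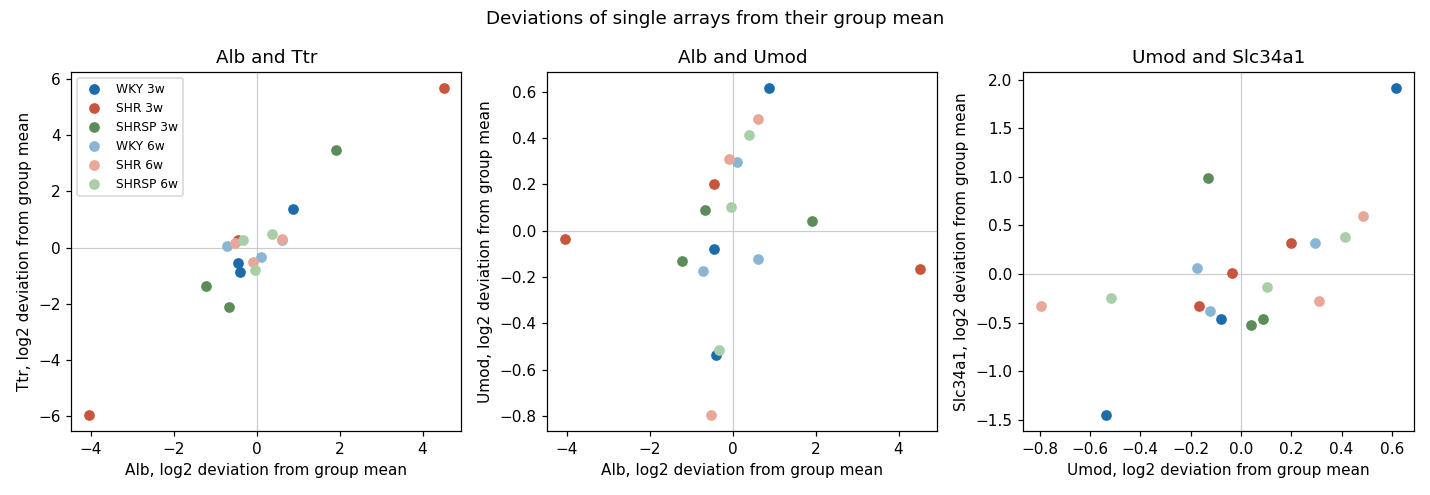
Deviations of the 18 arrays from their group means (log2) for 3 pairs of genes, with colours for strain and age. Alb and Ttr spread along 1 line (r = 0.96) whose ends are SHR replicates 1 and 2 at 3 weeks, Alb and Umod do not (r = 0.13), and Umod and Slc34a1 are in between (r = 0.62).

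Ranked over 20710 genes by the same r, the members lay high in each other's lists. For Ttr, Fgb was first, Fga second and Alb the fifth. For Alb, Ttr was the 10th, Fgb the 11th and Fga the 16th, while Umod was at rank 4824. The non-member genes nearest to Alb were Itih4 (r = 0.98), Itih3, Ces1c, Fabp1 and Fbp1, and those nearest to Ttr were Fabp1 (r = 0.97), Itih4, Itih3, Apoh and RGD1566313. For Afp they were C3 (r = 0.97), Pon1, Hgfac, Aqp9 and Abcc2. Each of these stood highest above its group on SHR replicate 2 at 3 weeks. For Umod the nearest were Mtnr1b (r = 0.94), Rspo2, Kif21b, Sox9 and Prok1, and for Slc34a1 Ppp1r3a (r = 0.89), Nxf7, Adcy2, RGD1561426 and Cacng3, the latter 5 highest on WKY replicate 3 at 3 weeks. All are descriptions over 18 arrays that share those few extreme arrays.

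Umod varied between arrays of 1 group, by up to 2.43-fold in SHR at 6 weeks. Its signals were 57.9, 39.6 and 94.2 in WKY, 48.2, 38.9 and 55.3 in SHR, and 51, 61 and 55.4 in SHRSP at 3 weeks, and ran from 29.7 to 79.8 at 6 weeks. No comparison called it, the groups overlapped in all 9, and its log2 differences ran from -0.36 to 0.26 with a standard error of 0.33. Slc34a1 was well above background on WKY replicate 3 at 3 weeks alone, at 18.9 against 3.62 and 1.72 in the other 2, and between 1.53 and 7.27 on the other arrays. Its level elsewhere is only a bound.

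Differences between groups were tested with limma on all 18 arrays, with Benjamini-Hochberg adjustment over all genes kept. In SHR against WKY at 3 weeks 2 of the 7 tested members were called, Apoa1 higher and Afp lower, where 18.2% of all genes were called. Apoa1 passed the filter only through SHR and SHRSP at 3 weeks, the groups where it was highest. Its tests against WKY at 3 weeks are therefore not independent of the filter. Apoa1 differed by 4.91 ± 1.26 (log2, standard error, limma adjusted p = 0.0137). This is at least 12.3-fold for the mean of 3 arrays, since no WKY array was well above background. That limit rested on SHR replicate 2, and was at least 2.91-fold without it. Without the 3 arrays of most liver signal, which leaves SHR replicate 1 alone, it was 1.78 (limma adjusted p = 0.192), and with normexp background 2.16 (adjusted p = 0.105). On the 3 slides that held both groups it ran from 1.49 to 8.96. Alb, at 3.99 ± 1.47 (adjusted p = 0.0774), Ttr, at 4.87 ± 2.06 (adjusted p = 0.127), and Fgg, at 2.39 ± 0.998 (adjusted p = 0.121), did not pass. Their differences were -0.06, -1.07 and 0.08 without the 3 arrays (adjusted p = 0.991, 0.633 and 0.956), so those of Alb and Ttr changed sign.

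In SHRSP against WKY at 3 weeks 2 of 7 were called, Afp lower and Slc22a6 higher (26.2% of all genes). Apoa1 was at 3.08 ± 1.26 (limma adjusted p = 0.0895), which is at least 3.44-fold, since no WKY array was well above background. Without the 3 arrays the fitted difference was 2.49 (limma adjusted p = 0.00552), set against the same WKY signals not well above background. In SHR against WKY at 6 weeks 2 of 7 were called, Afp lower and Slc22a6 higher (29.1%), and in SHRSP against WKY at 6 weeks 1 of 7, Afp lower (23.9%). SHRSP against SHR called Slc22a6 alone at both ages (7.9% of all genes at 3 weeks and 14.9% at 6 weeks).

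Afp was lower in both hypertensive strains at both ages. In WKY it was at 427, 368 and 435 at 3 weeks and 96.3, 113 and 129 at 6 weeks, well above background on all 6 arrays. At 6 weeks it was at 8.32, 13.4 and 21.2 in SHR and 10.1, 16.4 and 8.18 in SHRSP, with 1 of 3 arrays well above background in each. No array labelled SHR or SHRSP reached a WKY array of its age, so the groups did not overlap in any of the 4 comparisons. The nearest was SHR replicate 2 at 3 weeks, at 281, the array with the most liver signal.

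The log2 difference of Afp from WKY was -3.47 ± 0.87 in SHR (limma adjusted p = 0.0121) and -4.45 ± 0.87 in SHRSP (adjusted p = 0.00169) at 3 weeks. At 6 weeks it was -3.10 ± 0.87 in SHR (adjusted p = 0.0154) and -3.50 ± 0.87 in SHRSP (adjusted p = 0.00872). On the slides that held both groups it ran from -5.34 to -0.35 in SHR at 3 weeks, the smallest on the slide of SHR replicate 2, and from -4.97 to -2.83 in the other 3 comparisons. The 3-week SHR call was lost without SHR replicate 1 (-2.55, adjusted p = 0.0508) or replicate 3 (-2.87, adjusted p = 0.064), and the 6-week SHR call without SHR replicate 1 (-2.78, adjusted p = 0.0534). Without the 3 arrays of most liver signal, SHRSP at 3 weeks (-4.68) and both 6-week comparisons were still called. In SHR at 3 weeks the difference was then -5.30, from replicate 1 alone. Afp was at 10.9 and not well above background on that array, so the size is only a bound. None of the other 4 liver members tested was called lower than WKY.

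Within WKY Afp was at -2.47 ± 0.08 (SD, n = 3) at 3 weeks and -4.26 ± 0.17 at 6 weeks on the log2 scale. The groups did not overlap, and the change of -1.79 ± 0.87 did not pass (limma adjusted p = 0.211). Without the 3 arrays of most liver signal, whose spread enters the shared error, the same change had a standard error of 0.32 and passed (adjusted p = 0.00596).

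Between 3 and 6 weeks, SHR called 2 of 7 members, Ttr lower and Slc22a6 higher (29.2% of all genes), and WKY and SHRSP called Slc22a6 alone (12.3% and 28.9%). Ttr changed by -5.99 ± 2.06 in SHR (limma adjusted p = 0.042), although its groups overlapped. The change was -3.16 without SHR replicate 2 (adjusted p = 0.192) and -0.06 without the 3 arrays of most liver signal (adjusted p = 0.968), so it rested on those arrays. In the wider liver list 12 of 27 tested genes fell and 2 rose in SHR with age, with a median of -1.62 against 0.08 over all genes. Markers of other tissues fell in the same comparison, 11 of 15 fat genes (median -1.14) and 5 of 6 red cell genes (median -0.84), and their part in the result was not tested. With the 3 arrays left out 2 fell and 4 rose (7.41% of all genes called), with a median of -0.30. There 0 of 15 fat genes were called by limma (4 with an unadjusted p under 0.05, median -0.62) and 1 of 6 red cell genes (median -0.76).

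Slc22a6 was even within groups and did not follow the liver genes. At 3 weeks its signals were 299, 275 and 294 in WKY, 297, 254 and 284 in SHR, and 346, 390 and 342 in SHRSP. At 6 weeks they were 459, 414 and 378 in WKY, 541, 521 and 587 in SHR, and 450, 444 and 550 in SHRSP. Every 6-week group lay above the 3-week group of its strain without overlap. From low to high the group means were -3.03 in SHR and -2.97 in WKY at 3 weeks, whose difference did not pass (limma adjusted p = 0.692), -2.65 in SHRSP at 3 weeks, -2.37 in WKY and -2.32 in SHRSP at 6 weeks, which overlapped, and -1.99 in SHR at 6 weeks.

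Slc22a6 rose with age by 0.61 in WKY (limma adjusted p = 0.000306), by 1.04 in SHR (adjusted p = 1.15e-06) and by 0.34 in SHRSP (adjusted p = 0.00676), each with a standard error of 0.08. It was 0.32 higher in SHRSP than in WKY at 3 weeks (adjusted p = 0.00983) and 0.37 higher in SHR than in WKY at 6 weeks (adjusted p = 0.00341). Between the hypertensive strains it was 0.38 higher in SHRSP at 3 weeks (adjusted p = 0.0103) and lower by a log2 difference of -0.33 in SHRSP at 6 weeks (adjusted p = 0.0146). Slc22a6 thus changed sides between the arrays labelled SHR and SHRSP from 3 to 6 weeks, as the 13 genes above did. Without the 3 arrays of most liver signal, which leaves 1 SHR and 2 SHRSP arrays at 3 weeks, the 3-week differences were 0.30 from WKY (adjusted p = 0.0639) and 0.34 from SHR (adjusted p = 0.377). Without SHRSP replicate 1 the 6-week difference between the hypertensive strains was -0.30 (adjusted p = 0.057). On every slide that held both groups these differences had the same sign as over all arrays.

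The age change of Slc22a6 was larger in SHR than in WKY by 0.43 ± 0.12 (limma adjusted p = 0.042, 1 of 7 members and 5.8% of all genes called) and differed between SHRSP and SHR by -0.70 ± 0.12 (adjusted p = 0.00128, 1 of 7 and 11.9% of all genes). The first passed in 4 of 18 fits that left out 1 array, and was 0.41 without the 3 arrays of most liver signal (adjusted p = 0.322). In SHRSP against WKY 0 of 7 members were called (10% of all genes called), with Slc22a6 at -0.27 (unadjusted p = 0.0346, adjusted p = 0.162) as the only member with an unadjusted p under 0.05. Both calls rest on the strain labels. The 6-week arrays labelled SHRSP lay 0.72 above the 3-week arrays labelled SHR, and the 6-week arrays labelled SHR lay 0.66 above the 3-week arrays labelled SHRSP, each ± 0.08. These differ from the WKY change by 0.11 and 0.06, with a standard error of 0.12.

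**Figure D5:**
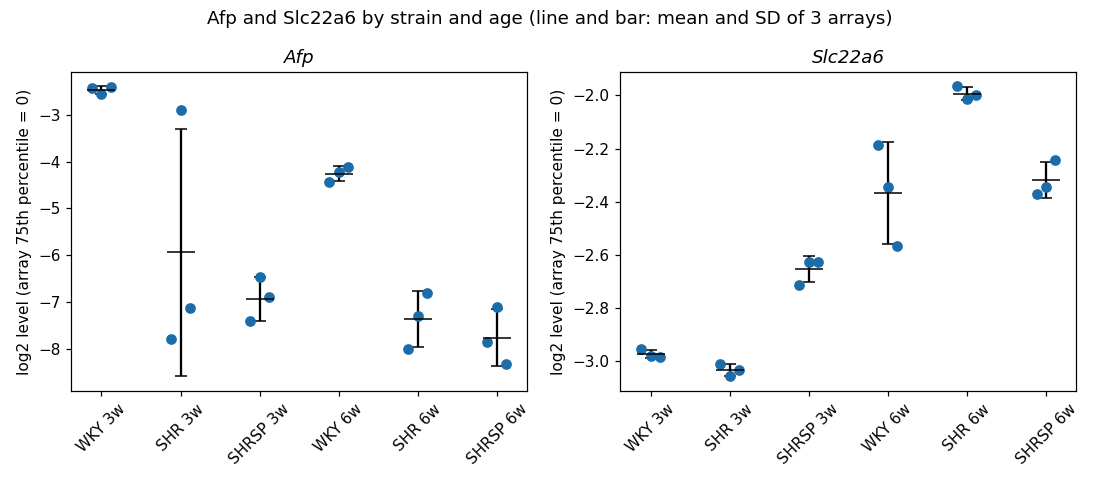
Level of Afp (left) and Slc22a6 (right) on the 18 arrays (y axis, log2 relative to the array's 75th percentile) by strain and age. Points are arrays, and the line and bar are the mean and SD of 3. Afp is highest in WKY at each age with SHR replicate 2 at 3 weeks as the nearest other array, and Slc22a6 is lowest in SHR at 3 weeks and highest in SHR at 6 weeks.

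In the wider kidney list 5 of 27 tested genes rose and 6 fell in SHR with age (29.2% of all genes called), and without the 3 arrays 1 rose and 0 fell. In SHR against WKY at 3 weeks 4 of 27 rose and 2 fell, where 18.2% of all genes were called. Cubn, a receptor of the proximal tubule, was higher by 1.11 ± 0.23 (limma adjusted p = 0.00347), Kl, the gene of klotho, by 0.79 ± 0.16 (adjusted p = 0.00284) and Calb1 by 0.89 ± 0.22 (adjusted p = 0.0118), and Slc12a3, the distal salt transporter, was at -0.77 ± 0.14 (adjusted p = 0.0013). In that comparison 0 of 27 were called by limma without the 3 arrays, where 3.61% of all genes were, and 5 of 27 had an unadjusted p under 0.05. Summed over the wider kidney list, the level ran from 23.8 to 26.2 in SHR at 3 weeks and from 33.2 to 38.5 in SHR at 6 weeks, where Slc22a6 was higher too. In WKY it ran from 27.5 to 28.8 at 3 weeks and from 23.2 to 28.0 at 6 weeks, and in SHRSP from 29.1 to 33.3 and from 26.8 to 29.1, although Slc22a6 rose with age in both. Slc34a1 was not well above background on any SHR array at either age. The part of kidney tissue in the Slc22a6 values was not tested.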

How the data were processed

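Total RNA was labelled with Cy3 from an oligo-dT primer and read on 1-colour Agilent arrays with Feature Extraction 10.5.1.1, per the labels and file headers. The deposited values are processed signal intensities on a linear scale, not normalized between arrays by the authors, and the deposited series table held the same values (largest difference 0). From them log2 of the processed signal minus the array's 75th percentile was computed, without control spots and outlier spots. A gene was read by its brightest probe. Genes well above background on all 3 arrays of a group were kept.

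In R 4.3.3, limma 3.58.1 fitted 1 mean for each of the 6 groups, with 12 residual and 2.12 prior degrees of freedom, and gave 9 pairwise comparisons and 3 of age changes. A gene was called where its p, adjusted over all genes kept by the Benjamini-Hochberg method, was under 0.05. The fit and the permutation test were tested on simulated data. For a group with no array well above background the fold is a lower limit, taken from the mean of the bright group over the dim group's mean of each array's detection floor (its lowest signal well above background) or the probe's signal, whichever is higher. Slides (5) and scan days (3) of the arrays were taken from the file headers.

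Alternatives were normexp background (offset 50), quantile normalization, other filters, slide, scan day or replicate number as a block, the mean over probes, array weights, only the groups compared, each array left out, and, chosen after the data were seen, 3 arrays left out together (SHR replicates 2 and 3 and SHRSP replicate 2 at 3 weeks). The members and lists were chosen with earlier results of these data known. Named are all 10 members, the 5 non-members nearest by r to Alb, Afp, Ttr, Umod and Slc34a1, the 6 genes of widest spread in each wider list, and up to 4 of these lists called in the comparison that calls most members. Of 4 comparisons tied at 2 members, the one of SHR and WKY at 3 weeks was used. Vegfb, Serpinc1, Acsm2, Cdh16, Rbp4, Apoc1, Vtn, Kng1 and Cyp2c11 were named after their values were seen. Python 3.11.15, pandas 2.3.3 and matplotlib 3.10.9 were used.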

Additional observations from a re-analysis of the deposited data

Results flagged for a closer look

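The age change of Slc22a6 differed between strains in the test of the difference itself, by 0.43 (log2) for SHR against WKY (limma adjusted p = 0.042) and by -0.70 for SHRSP against SHR (adjusted p = 0.00128). Both use the SHR and SHRSP labels of both ages, in which 13 of 14 strongly separated genes lay on opposite sides, and their part in these values was not tested.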

How the results depend on the processing

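No called difference changed sign under any alternative. Differences that were not called did so without the 3 arrays of most liver signal: in SHRSP against SHR at 3 weeks Alb went from -2.05 to 1.05, Ttr from -3.24 to 0.95, Apoa1 from -1.83 to 0.72 and Afp from -0.99 to 0.62, and in the SHR age change the median of the 5 liver members from -2.61 to 0.15. Counts of members called moved as follows, and the cause was not tested. The share of all genes called moved between fits too. In SHRSP against WKY at 3 weeks it went from 26.2% to 18.9% without the 3 arrays. The counts are therefore a check on the calls and not a result about the members. In SHR against WKY at 3 weeks the 2 calls became 1 with normexp, 0 with only genes well above background on all 18 arrays, 5 with array weights, 0 with only the 2 groups compared and 1 without the 3 arrays of most liver signal. The filter on all 18 arrays gave 1 call in SHRSP against WKY at 3 weeks, 1 in SHR against WKY at 6 weeks and 0 in SHRSP against WKY at 6 weeks, since Afp and Apoa1 were not tested there. With only the 2 groups compared there was 1 call in SHR against WKY and 0 in SHRSP against SHR at 6 weeks, 2 in the WKY age change, 1 in that of SHR and 2 in that of SHRSP. Without the 3 arrays there were 0 in SHRSP against SHR at 3 weeks, 3 in SHR against WKY (Apoa1 gained), 2 in SHRSP against WKY and 2 in SHRSP against SHR at 6 weeks, and 2, 1 and 3 in the age changes of WKY, SHR and SHRSP. SHRSP against WKY at 3 weeks kept 2, with Apoa1 in place of Slc22a6. The SHR age change had 1 call without a filter, 1 with scan day as a block and 5 with array weights, and the WKY age change 2 with normexp. The age change of SHR against WKY had 0 with normexp, 0 without a filter and 0 without the 3 arrays. Quantile normalization called 1 liver pair against 0, and normexp left 0 of 4 members high on WKY replicate 3 at 3 weeks.

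Leaving out 1 array at a time gave 1 to 4 calls in SHR against WKY, 2 to 3 in SHRSP against WKY and 1 to 2 in SHRSP against SHR at 3 weeks, and 1 to 2, 1 to 1 and 0 to 1 in the same comparisons at 6 weeks. The age changes gave 1 to 2 in WKY, 1 to 5 in SHR and 1 to 2 in SHRSP. Their comparisons gave 0 to 2 for SHR against WKY, 0 to 1 for SHRSP against WKY and 1 to 1 for SHRSP against SHR, and the liver pairs 0 to 4. Without SHR replicate 1 at 3 weeks there were 4 calls in SHR against WKY and 5 in the SHR age change. Shares of all genes called in these fits are not given here, so the counts are not read as results about the members. The liver pairs had 4 calls without WKY replicate 1, WKY replicate 2 or SHR replicate 2 at 6 weeks.

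Over all groups replicate numbers did not pair the arrays: of 45 same-numbered pairs 13 had a correlation of deviations over 0.1, and in 17 the same number gave the best correlation. At 3 weeks, however, the same number was best for every replicate of WKY with SHR (r = 0.36, 0.09 and 0.29) and of SHR with SHRSP. WKY and SHR replicates 1 to 3 at 3 weeks shared slides 1, 2 and 4. With the replicate block 0 members were called in the age change of SHR against WKY (Slc22a6 0.43, limma adjusted p = 0.0511), and no other member lost its call. Slides as a block ended no call. Levels under the background, as for Fga, Fgb and Slc34a1 on most arrays, are bounds, and groups of 3 limit all tests.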
